A study of Mus musculus with 9 samples.

Results

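The genes described here encode the secreted ligands, the receptors and the Smad proteins of transforming growth factor beta (TGF-beta) and bone morphogenetic protein (BMP) signalling. They were taken by symbol from the annotation of an Affymetrix expression array: every probe set with exactly 1 gene symbol beginning with Bmp or Gdf and a digit, Bmpr, Tgfb or Tgfbr and a digit, Acvr, or Smad and a digit. The rule found 44 genes, each with 1 probe set, among 19937 genes with 1 symbol and 28214 probe sets in all. Of the 44, 21 encode ligands, 12 receptors and 8 Smads. Bmp1, Bmp2k and Tgfb1i1 match by symbol alone and encode a protease, a kinase and an adaptor. A probe set shared by Gdf1 and Cers1 carried more than 1 symbol and was left out.

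RNA of the oviduct, the tube between ovary and uterus in which eggs are fertilised, was measured in female mice of the CD1 strain that received no hormone. The 3 groups had 3 arrays each: sexually mature females in diestrus, sexually mature females in estrus and sexually immature females of day 21. Each array carried RNA from the pooled oviducts of 5 animals, so the spread between arrays is a spread between pools, and the number of arrays limits the precision. Markers of the oviduct lining lay well above the array medians of 8.85 to 8.90 in every group. The mean log2 level of 6 ciliated cell markers was 11.33 to 11.50 in diestrus, 11.29 to 11.49 in estrus and 11.38 to 11.74 in immature oviduct. In bulk tissue, fewer cells of a type and less RNA per cell cannot be told apart.

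Ligands of this family bind a pair of receptor types on the cell surface. A type II receptor kinase phosphorylates a type I receptor kinase, which in turn phosphorylates receptor-regulated Smads. These join the common Smad4, enter the nucleus and act on target genes, while the inhibitory Smads dampen the response. TGF-beta is secreted in a latent form held in the matrix, and BMPs are held in check by secreted antagonists. In the female tract of mice the pathway is known for its part in forming oviduct and uterine muscle, which is disturbed when Tgfbr1 is deleted in the mesenchyme of these organs.

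None of the 44 genes was called as different between groups. At an adjusted p under 0.05 in limma, taken over all probe sets, the count was 0 of 44 for diestrus against estrus, 0 for diestrus against immature oviduct, 0 for estrus against immature oviduct and 0 for both mature stages against immature oviduct. Over all probe sets the shares called were 0.159%, 1%, 0.0851% and 0.432% in the same order, so 0 of 44 lies close to the background. At an unadjusted p under 0.05 there were 3 genes for diestrus against estrus (Tgfb3, Bmp3 and Tgfbr3), 1 for diestrus against immature oviduct (Bmp7), 0 for estrus against immature oviduct and 1 for mature against immature oviduct (Bmp7 again). The shares of all probe sets at that level, again in that order, were 9.33%, 13.4%, 6.52% and 10%.

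All values of one group lay apart from those of the other for 4 genes between diestrus and estrus (Tgfb2, Bmp3, Bmp4 and Acvr2a), 4 between diestrus and immature oviduct (Acvr1, Acvr2a, Smad2 and Smad4), 3 between estrus and immature oviduct (Tgfb2, Smad4 and Tgfb1i1) and 1 between mature and immature oviduct (Smad4). Over all probe sets the shares were 11.8%, 18.4%, 9.8% and 4.58%.

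The intervals bounded most differences. A 2-fold difference in intensity lay outside the 95% interval of every one of the 44 genes in each of the 4 comparisons. A 1.5-fold difference lay outside it for 41 genes in diestrus against estrus and for 43 genes in each of the other comparisons. The exceptions were Tgfb3, Bmp15 and Gdf10 between the mature stages, Gdf10 between diestrus and immature oviduct, and Bmp15 between estrus and immature oviduct and between mature and immature oviduct. Array intensities of dim probe sets understate changes in RNA, so these bounds hold for intensity.

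**Figure D1:**
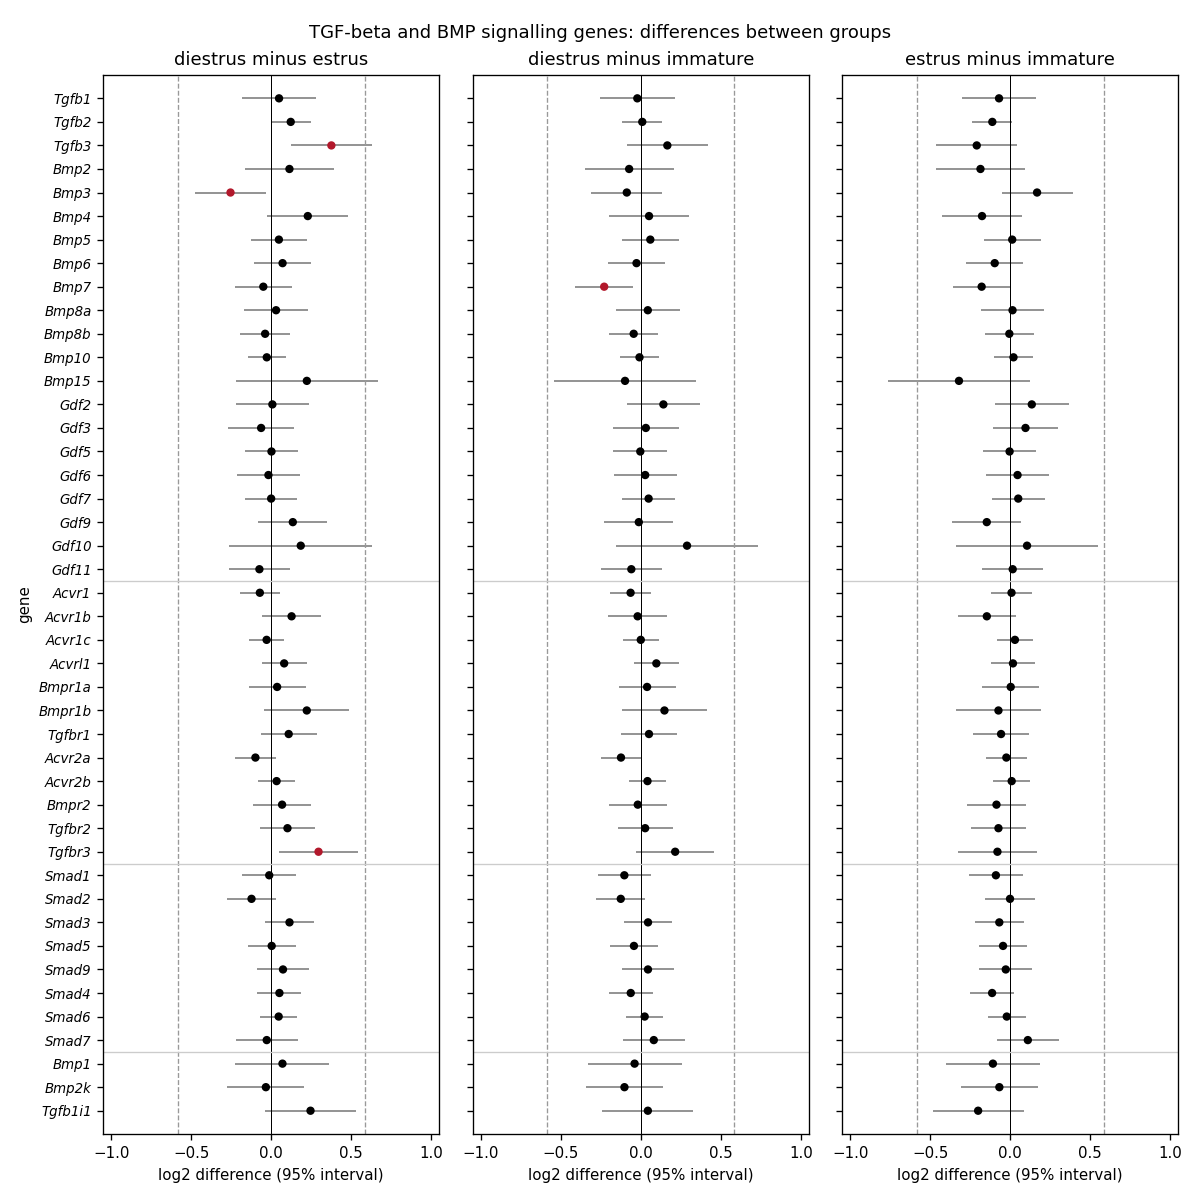
Log2 differences (points) with 95% intervals (lines) for the 44 genes, ligands at the top, then receptors, Smads and the 3 genes matched by symbol alone, in 3 comparisons. Red points have an unadjusted p under 0.05, dashed lines mark 1.5-fold in either direction, and no gene passed an adjusted p of 0.05.

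The median log2 difference over the 44 genes was 0.05 for diestrus minus estrus, with 29 of 44 means higher in diestrus. Over all genes with 1 symbol the median was -0.01, with 46.1% of means higher in diestrus. The median over the 44 genes was 0.00 for diestrus minus immature and -0.04 for estrus minus immature, with 22 and 16 of 44 means higher in the mature stage. The medians over all genes were -0.0003 and 0.002 in those comparisons, with 49.8% and 51.2% of means higher. Both comparisons with immature oviduct use the same 3 immature arrays.

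Levels bear on how these values can be read. On all 9 arrays, 28 of the 44 genes lay above the median of all probe sets of that array, 9 lay below it, and 7 lay on both sides. Among receptors 11 of 12 and among Smads 7 of 8 lay above it on every array, against 7 of 21 ligands. The 8 ligands below the median throughout were Bmp2, Bmp5, Bmp10, Gdf2, Gdf3, Gdf5, Gdf6 and Gdf9, and the 1 receptor was Acvr1c. These 9 genes were not shown to be above background. Among them 5 had their highest value on estrus 1 and 7 their lowest on estrus 2, and the same arrays were highest for 41.7% and lowest for 30.1% of the 8054 genes that lay below the median on all arrays.

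**Figure D2:**
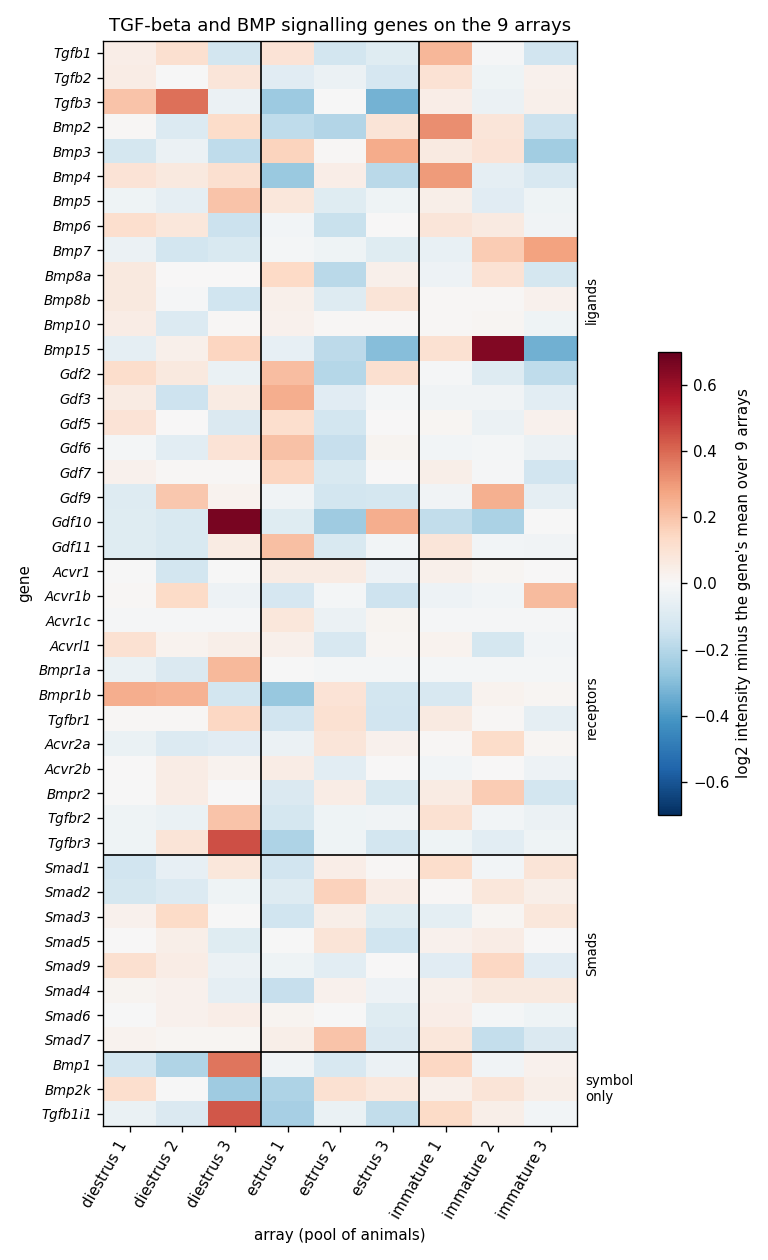
Each cell is the log2 intensity of a gene on 1 array minus that gene's mean over the 9 arrays, with diestrus, estrus and immature arrays from left to right and genes grouped by role. The strongest colours are single cells, Gdf10 on diestrus 3 and Bmp15 on immature 2, and no role shows a block of colour across the 3 arrays of a group.

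Among the TGF-beta ligands, Tgfb3 showed the largest difference between the mature stages. Tgfb3 encodes one of the latent growth factors that bind Tgfbr2, and its log2 intensity was 10.85, 11.03 and 10.61 on the diestrus arrays, 10.40, 10.65 and 10.32 on the estrus arrays and 10.70, 10.61 and 10.68 on the immature arrays. Diestrus 1 and 2 held the highest values of the 9 arrays, whereas diestrus 3 lay below estrus 2, so the groups overlapped. The difference for diestrus minus estrus was 0.38 with a 95% interval of 0.12 to 0.63 (limma adjusted p = 0.28). Without diestrus 3 it was 0.49 (adjusted p = 0.0918), the highest of a range of 0.27 to 0.49 with 1 array left out. The immature values lay between the means of the mature stages, and the differences from them were 0.17 for diestrus and -0.21 for estrus.

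Tgfb2, a second ligand of this kind that also needs the co-receptor Tgfbr3 for efficient binding, read 9.46, 9.40 and 9.49 on the diestrus arrays, 9.33, 9.37 and 9.29 on the estrus arrays and 9.51, 9.38 and 9.44 on the immature arrays. All 3 diestrus values lay above all 3 estrus values, a separation seen in 11.8% of all probe sets. The gap was small, 0.12 with a 95% interval of -0.003 to 0.25 (adjusted p = 0.552). The estrus values also lay below all immature values, with a mean difference of -0.11, where 9.8% of probe sets separated. Tgfb1, the main ligand of leukocytes and platelets, ranged over 8.62 to 8.99, and its groups overlapped in every comparison. Its values lay below the array median on 8 of 9 arrays.

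The BMP ligands made up 10 of the 21. Bmp7, a ligand of developing kidney and reproductive ducts, read 9.54, 9.46 and 9.48 on the diestrus arrays, 9.57, 9.56 and 9.50 on the estrus arrays and 9.54, 9.77 and 9.87 on the immature arrays. Immature 2 and 3 held the highest values, while immature 1 lay within the mature range, so the groups overlapped. The difference was -0.23 with a 95% interval of -0.41 to -0.05 for diestrus minus immature and -0.20 with a 95% interval of -0.36 to -0.05 for mature minus immature, with adjusted p of 0.25 and 0.341. Leaving out immature 3 brought the mature difference to -0.13 and leaving out immature 1 to -0.30.

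Bmp3, which unlike most of its family opposes BMP and activin signalling, read 8.59, 8.68 and 8.54 on the diestrus arrays, 8.87, 8.72 and 8.98 on the estrus arrays and 8.78, 8.82 and 8.48 on the immature arrays. The diestrus values lay below all estrus values, but the immature values spanned both groups. For diestrus minus estrus the difference was -0.25 with a 95% interval of -0.48 to -0.03 (adjusted p = 0.435). Of the 9 arrays, 8 had values under the array median, so Bmp3 was not shown to be above background there.

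Bmp4 and Bmp2 encode close relatives that induce mesenchyme and smooth muscle. Bmp4 stood at 9.80, 9.77 and 9.82 in diestrus, 9.44, 9.75 and 9.52 in estrus and 10.003, 9.64 and 9.59 in immature oviduct. The 3 diestrus pools lay close together and above every estrus pool, while immature 1 was the highest of all. The difference for diestrus minus estrus was 0.23 with a 95% interval of -0.02 to 0.48 (adjusted p = 0.6). Bmp2 stood at 7.98, 7.88 and 8.11 in diestrus, 7.79, 7.77 and 8.06 in estrus and 8.30, 8.06 and 7.82 in immature oviduct, and its groups overlapped throughout, with immature 1 highest again. Bmp6 ranged over 9.12 to 9.39 and Bmp5 over 7.81 to 8.09, with all differences between -0.10 and 0.07. Bmp8a and Bmp8b are neighbouring, nearly identical genes whose signals an array may not separate, and they ranged over 8.66 to 8.99 and 8.77 to 9.00. Bmp10, a ligand made in the heart, lay below the lower quartile on every array (5.98 to 6.13).

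Bmp15 and Gdf9 encode the pair of growth factors that oocytes secrete to the follicle cells around them, and both were highest on immature 2. Bmp15 read 8.26, 8.36 and 8.48 on the diestrus arrays, 8.26, 8.14 and 8.03 on the estrus arrays and 8.43, 8.97 and 7.99 on the immature arrays, the widest range of the 44 genes. Immature 2 stood alone above the other 8 arrays, and immature 3 was the lowest of all. On those 8 arrays Bmp15 lay below the array median and was not shown to be above background. Gdf9 read 7.85, 8.13 and 7.97 on the diestrus arrays, 7.92, 7.81 and 7.82 on the estrus arrays and 7.92, 8.19 and 7.88 on the immature arrays, with diestrus 2 next after immature 2. The oocyte coat gene Zp2 stood at 8.92 on immature 2 as well, against 7.43 to 8.29 on the other 8 arrays. Of 10 oocyte markers, 6 were highest on immature 2, and so were all 7 granulosa cell markers measured, led by Inha at 12.42. The mean log2 level of the oocyte markers was 7.97 to 8.10 in diestrus, 7.85 to 8.08 in estrus and 7.93 to 8.49 in immature oviduct, and that of the granulosa markers 8.24 to 8.67 in diestrus, 8.26 to 8.57 in estrus and 8.21 to 9.51 in immature oviduct. No marker has a level of 0 on this scale, and the part of ovarian RNA in the Bmp15 and Gdf9 values was not tested. The Bmp15 difference for estrus minus immature, -0.32 with a 95% interval of -0.77 to 0.12, became -0.07 without immature 2.

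Gdf10, a ligand close in sequence to Bmp3, read 9.21, 9.19 and 9.96 on the diestrus arrays, 9.21, 9.05 and 9.54 on the estrus arrays and 9.12, 9.07 and 9.29 on the immature arrays. Diestrus 3 was the highest by a wide margin, with diestrus 1 and 2 inside the range of the other groups. The difference for diestrus minus immature was 0.29 with a 95% interval of -0.16 to 0.73 (adjusted p = 0.596) and 0.04 without diestrus 3. Gdf11, which patterns the body axis, ranged over 8.96 to 9.28, and Gdf7 over 8.73 to 9.01. Gdf2, a circulating ligand of the endothelial receptor Acvrl1, ranged over 7.44 to 7.86, and Gdf3, Gdf5 and Gdf6 lay between 7.80 and 8.26 on all arrays.

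**Figure D3:**
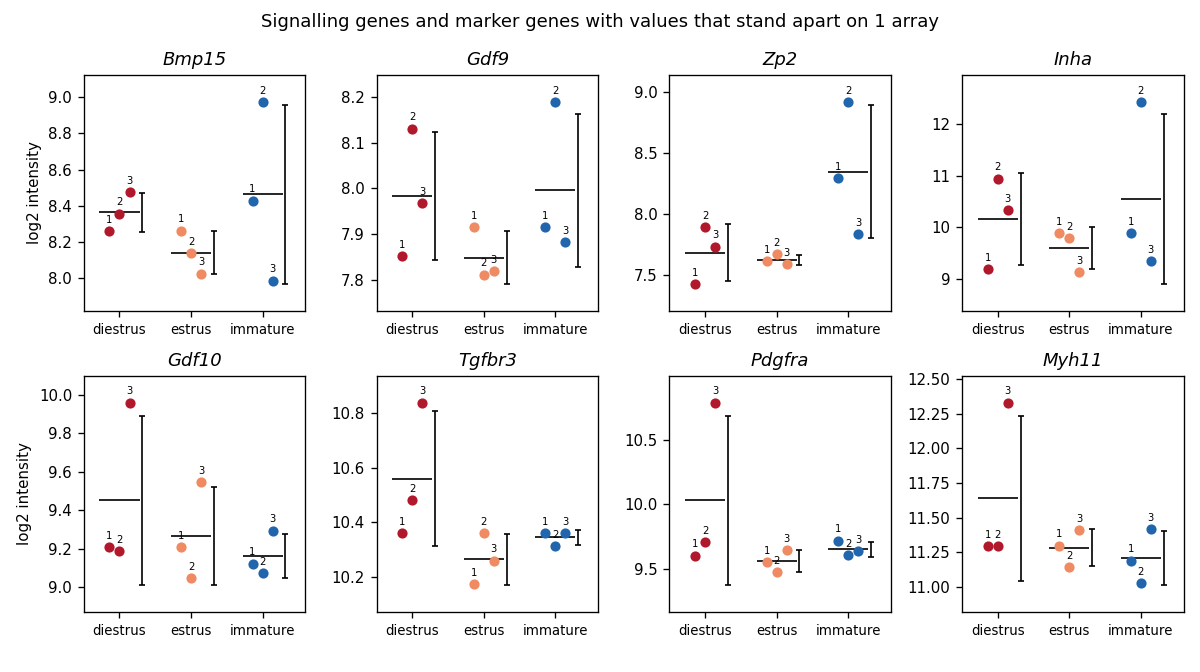
Log2 intensities of 4 signalling genes and 4 marker genes on each array, with array numbers beside the points, group means as horizontal lines and SD as bars (n = 3). Bmp15, Gdf9, the oocyte gene Zp2 and the granulosa gene Inha are highest on immature 2, and Gdf10, Tgfbr3, the fibroblast gene Pdgfra and the smooth muscle gene Myh11 on diestrus 3.

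The receptors had a median SD between arrays of a group of 0.10, against 0.12 for ligands. Their largest range was that of Tgfbr3, the co-receptor betaglycan, which presents TGF-beta to Tgfbr2 and helps inhibin to block activin. It read 10.36, 10.48 and 10.84 on the diestrus arrays, 10.17, 10.36 and 10.26 on the estrus arrays and 10.36, 10.31 and 10.36 on the immature arrays. Diestrus 3 was highest and estrus 1 lowest, and 4 arrays (diestrus 1, estrus 2, immature 1 and immature 3) carried the identical value. For diestrus minus estrus the difference was 0.30 with a 95% interval of 0.05 to 0.54 (adjusted p = 0.402), and it was 0.16 without diestrus 3.

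Diestrus 3 also held the highest value of the 9 arrays for Bmpr1a, Tgfbr1 and Tgfbr2 among receptors, and in all for 9 of the 44 genes, or 20.5% of them, against 10.8% of all genes. On the same array all 7 smooth muscle markers, all 6 fibroblast markers and all 7 endothelial markers were at their highest, as were 7 of 8 leukocyte markers and 4 of 5 Hox gene markers of the posterior duct. The mean log2 level of the smooth muscle markers was 11.13 to 11.89 in diestrus, 11.19 to 11.29 in estrus and 11.08 to 11.32 in immature oviduct. For fibroblast markers it was 10.84 to 11.71 in diestrus, 10.85 to 11.06 in estrus and 11.04 to 11.26 in immature oviduct. For the posterior duct markers it was 8.23 to 8.93 in diestrus, 8.18 to 8.32 in estrus and 8.07 to 8.37 in immature oviduct. The part of these lists in the values of the genes highest on diestrus 3 was not tested.

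Type I receptors are the kinases that act on Smads. Tgfbr1, the kinase that phosphorylates Smad2 and Smad3, stood at 9.87, 9.87 and 10.01 in diestrus, 9.73, 9.97 and 9.73 in estrus and 9.93, 9.87 and 9.80 in immature oviduct. The groups overlapped, with a difference of 0.11 with a 95% interval of -0.07 to 0.28 for diestrus minus estrus. Bmpr1a, the widely expressed BMP receptor kinase, stood at 11.20, 11.15 and 11.48 in diestrus, 11.25, 11.23 and 11.24 in estrus and 11.24, 11.24 and 11.24 in immature oviduct. The 6 arrays outside diestrus were nearly level, and 4 of the 9 arrays carried the identical value.

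Bmpr1b, a BMP receptor kinase that mice need for female fertility, stood at 10.95, 10.94 and 10.57 in diestrus, 10.43, 10.79 and 10.57 in estrus and 10.58, 10.72 and 10.71 in immature oviduct. Diestrus 1 and 2 were the highest arrays, and diestrus 3 lay among the estrus and immature values. Its difference for diestrus minus estrus was 0.22 with a 95% interval of -0.04 to 0.49 (adjusted p = 0.649), and 0.35 without diestrus 3 (adjusted p = 0.209). With 1 array left out the difference ranged over 0.14 to 0.35. Tgfb3 and Bmpr1b were thus both highest on diestrus 1 and 2, and diestrus 3 minus the mean of those 2 arrays was -0.34 and -0.37. The mean log2 level of 5 secretory epithelial markers was 11.25 to 11.38 in diestrus, 11.19 to 11.28 in estrus and 11.26 to 11.33 in immature oviduct. Diestrus 3 was the lowest diestrus array, but 2 of the 5 markers, Krt7 and Muc1, had their highest value there. Of 5 mesothelial markers, 4 were highest on diestrus 2, and Wt1 is in both lists. The mesothelial mean was 10.85, 11.01 and 10.59 on the diestrus arrays, 10.55, 10.76 and 10.62 on the estrus arrays and 10.80, 10.68 and 10.86 on the immature arrays. As for Tgfb3, diestrus 2 was highest and diestrus 3 lay below estrus 2. The part of either list in the Tgfb3 and Bmpr1b values was not tested.

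Acvrl1, the type I receptor of endothelial cells, stood at 9.53, 9.45 and 9.47 in diestrus, 9.46, 9.31 and 9.44 in estrus and 9.45, 9.30 and 9.41 in immature oviduct, with a difference of 0.10 with a 95% interval of -0.04 to 0.24 for diestrus minus immature. Acvr1b, a type I receptor of activin, ranged over 10.31 to 10.67 with immature 3 highest. Acvr1 and Acvr2b had ranges of 0.19 and 0.13 over the 9 arrays. Acvr1c gave the same reading, 7.25, on 6 arrays and lay below the lower quartile on all 9.

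Among type II receptors, Tgfbr2, which binds TGF-beta directly, stood at 10.57, 10.55 and 10.80 in diestrus, 10.48, 10.57 and 10.58 in estrus and 10.70, 10.58 and 10.56 in immature oviduct. Diestrus 3 and immature 1 were highest, and the other 7 arrays lay close together. Bmpr2, the BMP type II receptor, stood at 11.44, 11.49 and 11.44 in diestrus, 11.34, 11.49 and 11.33 in estrus and 11.50, 11.62 and 11.31 in immature oviduct, with overlapping groups and intervals between -0.27 and 0.25. Acvr2a, which binds activin and several BMPs, had all 3 diestrus values (9.996, 9.95 and 9.96) below the estrus values (10.004, 10.13 and 10.07) and the immature values (10.05, 10.17 and 10.05). Groups separated in this way for 18.4% of all probe sets between diestrus and immature oviduct. The difference there was -0.12 with a 95% interval of -0.25 to 0.004, with an adjusted p of 0.39.

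For the 8 Smads the median SD between arrays of a group was 0.08. Smad2 and Smad3 carry TGF-beta and activin signals. Smad2 read 10.04, 10.07 and 10.13 on the diestrus arrays, 10.07, 10.32 and 10.21 on the estrus arrays and 10.17, 10.24 and 10.20 on the immature arrays, with all diestrus values below all immature values and a difference of -0.12 with a 95% interval of -0.28 to 0.03. Smad3 read 10.27, 10.37 and 10.24 on the diestrus arrays, 10.11, 10.28 and 10.15 on the estrus arrays and 10.17, 10.26 and 10.32 on the immature arrays, with overlapping groups and 0.11 with a 95% interval of -0.04 to 0.27 for diestrus minus estrus. Neither passed the test (adjusted p = 0.486 and 0.71).

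Smad4, the common partner of both branches, read 11.46, 11.48 and 11.38 on the diestrus arrays, 11.28, 11.47 and 11.41 on the estrus arrays and 11.48, 11.51 and 11.52 on the immature arrays. The immature values lay at or above 11.48, just over every mature value, the only one of the 44 genes with that separation, where 4.58% of all probe sets had it. The mean gap was -0.09 with a 95% interval of -0.21 to 0.03, and its adjusted p was 0.613. Smad1, Smad5 and Smad9 carry BMP signals and ranged over 9.45 to 9.71, 10.89 to 11.12 and 8.67 to 8.90, with every difference between -0.10 and 0.07.

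The inhibitory Smads are themselves induced by the pathway. Smad7 read 9.51, 9.49 and 9.49 on the diestrus arrays, 9.52, 9.68 and 9.38 on the estrus arrays and 9.56, 9.31 and 9.38 on the immature arrays, with immature 2 lowest and estrus 2 highest. Smad6 read 9.16, 9.19 and 9.21 on the diestrus arrays, 9.19, 9.16 and 9.08 on the estrus arrays and 9.21, 9.15 and 9.13 on the immature arrays, one of the narrowest ranges among the 44 genes. Every comparison of Smad6 had an interval between -0.14 and 0.16.

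The promoter of Smad6 is shown because it was the only one, among 29 of the 44 genes with a promoter sequence in RefSeq's table (build GRCm38.p6, 250 bases before to 50 after each start), to hold the palindromic Smad element GTCTAGAC. It was held on either strand by 70 of all 32851 promoter windows there, or 0.213%. The Smad6 window is chr9:64022010-64022309 on the minus strand, and capitals mark the element, which begins 4 bases before the start site. A match is a description of letters and not a measured site.
Smad6 promoter: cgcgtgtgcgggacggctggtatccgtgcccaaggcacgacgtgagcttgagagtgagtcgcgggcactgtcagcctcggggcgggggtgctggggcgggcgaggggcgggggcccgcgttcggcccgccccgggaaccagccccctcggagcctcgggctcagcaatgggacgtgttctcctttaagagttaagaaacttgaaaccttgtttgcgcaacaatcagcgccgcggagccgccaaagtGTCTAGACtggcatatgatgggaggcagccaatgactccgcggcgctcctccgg
The shorter element CAGACA was found for 5 of the 29 genes (Bmp5, Bmp8b, Bmpr1b, Tgfb2 and Tgfbr1). By window it was in 5 of their 35 windows and in 21% of all windows on either strand. The GC-rich element GGCGCC, read by Smads of the BMP branch, was found for 8 of the 29 genes. By window it was in 9 of their 35 windows and in 11.9% of all windows. Genes with more than 1 window were counted if any window held the letters.

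Of the 3 genes matched by symbol alone, Bmp1 encodes the astacin protease that trims procollagen and cleaves the BMP antagonist chordin. It read 10.18, 10.10 and 10.68 on the diestrus arrays, 10.28, 10.19 and 10.27 on the estrus arrays and 10.45, 10.28 and 10.34 on the immature arrays, with diestrus 3 highest and the other 8 arrays between 10.10 and 10.45. Tgfb1i1, an adaptor of focal adhesions in muscle and fibroblasts, read 10.59, 10.54 and 11.07 on the diestrus arrays, 10.41, 10.59 and 10.47 on the estrus arrays and 10.77, 10.68 and 10.62 on the immature arrays. It too was highest on diestrus 3, the array with the highest smooth muscle, fibroblast and endothelial markers. Without that array its difference for diestrus minus estrus was 0.08 in place of 0.25. The part of these markers in the Tgfb1i1 values was not tested. Bmp2k, a kinase named for its induction by Bmp2, had its lowest value on diestrus 3 (11.95), with estrus 1 close to it (11.98) and at most 12.32 on any array.

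Other genes of the pathway, in 7 lists written with earlier results of these data known, gave 2 genes past the test among 90 measured. Tll1 fell in diestrus and in the mature stages together, relative to immature oviduct, and Ccn2 rose in diestrus relative to both other groups. The shares of all probe sets called higher and lower were 0.0673% and 0.0922% for diestrus against estrus, 0.294% and 0.705% for diestrus against immature oviduct, 0.0319% and 0.0532% for estrus against immature oviduct, and 0.121% and 0.312% for mature against immature oviduct.

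Tll1 encodes tolloid-like 1, a relative of the Bmp1 protease that likewise cleaves chordin and procollagen. Its log2 intensity was 9.21, 9.32 and 9.04 on the diestrus arrays, 9.11, 9.34 and 9.33 on the estrus arrays and 9.68, 9.67 and 9.76 on the immature arrays. Every mature pool lay below every immature pool. The mean log2 level of 5 markers of dividing cells was also lower in mature oviduct, at 8.68 to 9.50 in diestrus and 8.63 to 9.22 in estrus, against 9.74 to 9.87 in immature oviduct, and its part in the Tll1 values was not tested. Tll1 averaged 9.19 ± 0.14 in diestrus and 9.70 ± 0.05 in immature oviduct (SD, n = 3 each), a difference of -0.51 ± 0.09 (SE) or 0.7 times the intensity (limma adjusted p = 0.0323). For mature minus immature the difference was -0.48 ± 0.07 (adjusted p = 0.0314), and for estrus minus immature -0.45 ± 0.09 (adjusted p = 0.141). Diestrus and estrus differed by -0.07 with a 95% interval of -0.26 to 0.12. The diestrus call held without diestrus 3, estrus 1 or estrus 2 and was lost without any other single array (adjusted p of 0.0532 to 0.12), with differences of -0.58 to -0.44 over all 9 settings. The call for both mature stages was lost without immature 1, 2 or 3, estrus 2 or 3, or diestrus 1 (adjusted p of 0.0636 to 0.178).

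The promoter of Tll1 is shown as that of the 1 pathway gene called lower in any comparison. It is chr8:64205959-64206258 on the minus strand in build GRCm38.p6, from RefSeq, with the CAGACA element in capitals, here read on the opposite strand as TGTCTG.
Tll1 promoter: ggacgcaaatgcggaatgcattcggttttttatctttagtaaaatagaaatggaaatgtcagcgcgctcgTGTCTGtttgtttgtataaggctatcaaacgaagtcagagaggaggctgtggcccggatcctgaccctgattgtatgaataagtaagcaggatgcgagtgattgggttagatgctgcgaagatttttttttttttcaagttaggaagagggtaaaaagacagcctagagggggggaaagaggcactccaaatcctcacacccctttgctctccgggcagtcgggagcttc

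Pcolce, which encodes the enhancer protein that speeds the action of Bmp1 and its relatives on procollagen, read 10.19, 10.49 and 10.61 on the diestrus arrays, 10.07, 10.17 and 10.28 on the estrus arrays and 10.76, 10.59 and 10.78 on the immature arrays. All estrus values lay below all immature values, and diestrus 3 reached them. The difference was -0.53 ± 0.11 for estrus minus immature, without passing the test (adjusted p = 0.159), and -0.28 ± 0.11 for diestrus minus immature (adjusted p = 0.291). Among the 18 secreted antagonists and modulators measured, 0 were called higher and 1 lower (Tll1) in diestrus than in immature oviduct, with a median of -0.01. The BMP antagonist Grem1 stood at 8.98, 8.81 and 8.79 in diestrus, 8.78, 8.74 and 8.75 in estrus and 8.60, 8.75 and 8.54 in immature oviduct, with all diestrus values above all immature values (0.23 with a 95% interval of 0.06 to 0.39, adjusted p = 0.203). Its values were below the array median on 8 of 9 arrays.

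Ccn2 encodes connective tissue growth factor, a matrix protein induced by TGF-beta and also by mechanical signalling through other routes. Its log2 intensity was 10.81, 10.87 and 10.84 on the diestrus arrays, 10.16, 10.29 and 10.19 on the estrus arrays and 10.25, 10.11 and 10.19 on the immature arrays. The 3 diestrus values were nearly equal and stood clear of every other array, and estrus and immature values overlapped. Ccn2 averaged 10.84 ± 0.03 in diestrus and 10.21 ± 0.07 in estrus (SD, n = 3 each), a difference of 0.63 ± 0.06 or 1.55-fold (limma adjusted p = 0.0135). Against immature oviduct, at 10.18 ± 0.07, the difference was 0.66 ± 0.06 or 1.58-fold (adjusted p = 0.00272). Estrus and immature oviduct differed by 0.03 with a 95% interval of -0.10 to 0.16. The call against immature oviduct held without any single array. The call against estrus was lost without estrus 1, estrus 3 or diestrus 2 (adjusted p of 0.0763 to 0.085), with differences of 0.60 to 0.67 over the 9 settings. Neither call was made without diestrus 2, diestrus 3 and immature 2 together (adjusted p = 0.638 against estrus and 0.242 against immature oviduct), with 1 diestrus array left. The mean log2 level of 6 theca and luteal markers was 7.81, 9.86 and 8.60 on the diestrus arrays, against 7.78 to 7.95 in estrus and 7.75 to 8.56 in immature oviduct, with 1 of 6 called higher in diestrus than in immature oviduct. For 8 leukocyte markers the mean log2 level was 8.97, 9.01 and 9.34 on the diestrus arrays, above every other array though only just above immature 1, against 8.83 to 8.88 in estrus and 8.77 to 8.97 in immature oviduct. Of these 8, all had higher means in diestrus than in immature oviduct and 7 than in estrus, against 49.8% and 46.1% of all genes. In either comparison 0 were called, with 5 and 3 at an unadjusted p under 0.05. The part of either list in the Ccn2 values was not tested. For mature minus immature, Ccn2 differed by 0.35 ± 0.05 (adjusted p = 0.0252), a call lost without diestrus 1 or 2, estrus 3 or any immature array (adjusted p of 0.0624 to 0.142).

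Among the 11 measured targets of TGF-beta, Ccn2 was the only one called. Tgfbi, which encodes a secreted matrix protein named for its induction by TGF-beta, read 11.18, 11.27 and 11.36 on the diestrus arrays, 10.38, 10.89 and 10.49 on the estrus arrays and 10.90, 10.62 and 10.98 on the immature arrays. All diestrus values lay above all others, with a difference of 0.68 ± 0.13 from estrus (adjusted p = 0.096) and 0.44 ± 0.13 from immature oviduct (adjusted p = 0.187). Fn1, the fibronectin gene, read 12.72, 12.67 and 12.78 on the diestrus arrays, 12.71, 12.63 and 12.74 on the estrus arrays and 12.89, 13.02 and 13.02 on the immature arrays, with all mature values below all immature values. Its difference was -0.27 ± 0.05 for mature minus immature (adjusted p = 0.0828). The list as a whole had 8 of 11 means higher in diestrus than in estrus, with a median of 0.27, and 46.1% of all genes were higher there. Without diestrus 3 it was 7 of 11, with a median of 0.05.

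Of the 10 targets of BMP signalling, 0 were called. The Id genes encode inhibitors of helix-loop-helix factors and respond directly to Smads of the BMP branch. Id3 read 8.53, 8.60 and 8.54 on the diestrus arrays, 8.16, 8.38 and 8.13 on the estrus arrays and 8.31, 8.36 and 8.30 on the immature arrays, with all diestrus values above all others. The difference was 0.33 ± 0.07 from estrus (adjusted p = 0.119) and 0.23 ± 0.07 from immature oviduct (adjusted p = 0.177). Id3 lay below the array median on all 9 arrays and was not shown to be above background. Id4 read 10.63, 10.62 and 10.60 on the diestrus arrays, 10.36, 10.60 and 10.25 on the estrus arrays and 10.58, 10.56 and 10.60 on the immature arrays, and its difference for diestrus minus estrus was 0.21 ± 0.08 (adjusted p = 0.417). Gata2, a transcription factor gene, differed by 0.37 ± 0.13 (adjusted p = 0.353), with estrus 2 level with diestrus 2.

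**Figure D4:**
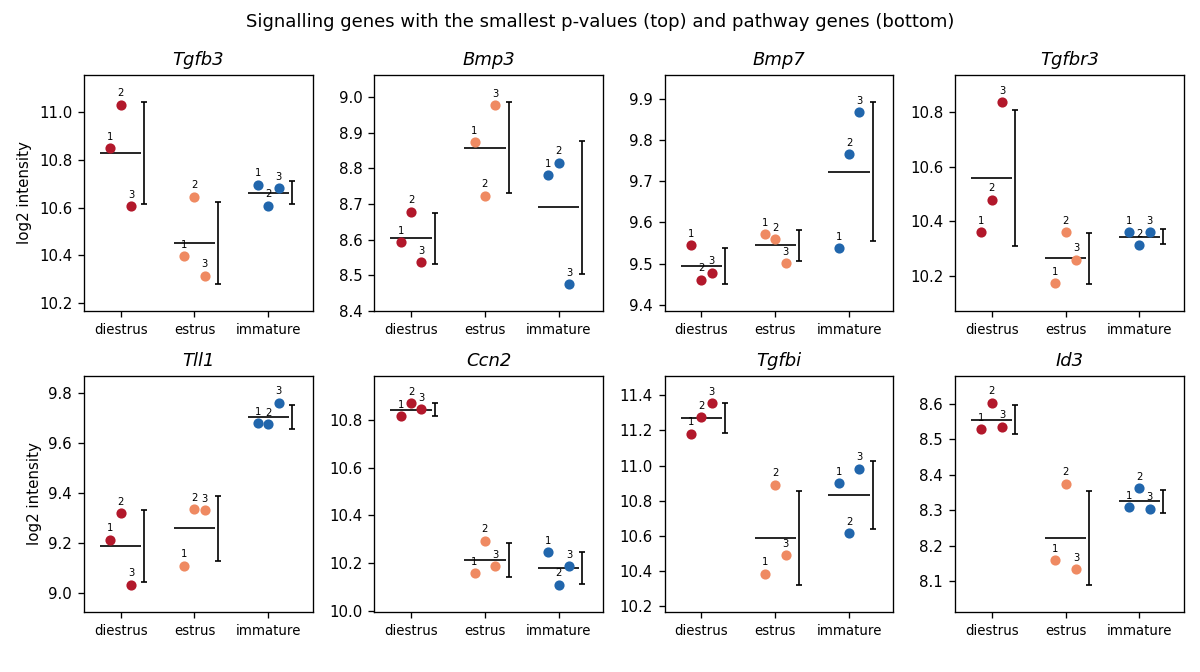
Log2 intensities on each array, with array numbers beside the points, group means as lines and SD as bars (n = 3); each panel has its own axis range. In the upper row Tgfb3, Bmp7 and Tgfbr3 overlap between groups, and in the lower row Tll1 is lower in both mature stages than in immature oviduct and Ccn2 is higher in diestrus than in both other groups.

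The list written for TGF-beta latency and release gave 0 calls among 11 genes. All 11 means were higher in diestrus than in estrus, and 8 of 11 without diestrus 3. The shares of all genes with 1 symbol were 46.1% and 49.4%. Itgav, the integrin subunit shared by the activating integrins, read 11.64, 11.78 and 11.63 on the diestrus arrays, 11.52, 11.63 and 11.36 on the estrus arrays and 11.38, 11.44 and 11.26 on the immature arrays. Its diestrus values lay above all others, by 0.33 ± 0.08 relative to immature oviduct (adjusted p = 0.11) and 0.18 ± 0.08 relative to estrus (adjusted p = 0.536). Itgb6, its epithelial partner, differed by 0.24 ± 0.10 between diestrus and immature oviduct (adjusted p = 0.357). Ltbp2, a gene of elastic fibres placed in this list by its name, differed by 0.21 ± 0.09 there (adjusted p = 0.375).

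The remaining lists gave 0 calls in every comparison. Of 10 further ligands of the family, Inha and Inhba, subunits of inhibin and activin, had differences of -0.95 ± 0.72 and -0.49 ± 0.41 for estrus minus immature (adjusted p = 0.855 and 0.859). Those became -0.01 and 0.13 without immature 2. Nodal, a ligand of early embryos, lay below the array median throughout and differed by 0.16 in that comparison. Tdgf1, a co-receptor of Nodal, differed by 0.14 ± 0.07 for diestrus minus immature (adjusted p = 0.438). Its values too lay below the array median on all 9 arrays, and below the lower quartile on 5. Among 11 co-receptors, endoglin (Eng) of endothelial cells read 9.58, 9.44 and 10.31 on the diestrus arrays, 9.41, 9.38 and 9.36 on the estrus arrays and 9.66, 9.57 and 9.60 on the immature arrays. Diestrus 3 was highest, as it was for all 7 endothelial, all 7 smooth muscle and all 6 fibroblast markers. The difference of 0.39 ± 0.18 from estrus became 0.13 without diestrus 3. The part of these lists in the Eng values was not tested. Neo1, a receptor that binds repulsive guidance molecules, had all mature values below all immature values, with a difference of -0.12 ± 0.04 (adjusted p = 0.391).

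Of 20 intracellular regulators 16 had lower means in the mature stages than in immature oviduct, with a median of -0.08, beside 10007 of 19937 genes. Nedd4l, a ubiquitin ligase gene acting on activated Smad2 and Smad3, differed by -0.23 ± 0.07 for estrus minus immature (adjusted p = 0.575). Tab1, a partner of the kinase encoded by Map3k7, differed by -0.18 ± 0.07 in the same comparison (adjusted p = 0.64). Strap, which stabilises Smad7 on the receptor, had all diestrus values (10.70, 10.51 and 10.87) below all estrus values (11.04, 11.001 and 10.89), a difference of -0.28 ± 0.09 (adjusted p = 0.337).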

How the data were processed

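Per the submitters' processing notes, the authors used RMA in Affymetrix Expression Console, and no version of either was found here. The deposited values are on a scale taken as log2 from their range. RMA corrects background, equalises distributions between arrays and summarises probes, which can compress changes of dim genes; 6 of the 44 genes hold 1 identical value on 3 or more arrays. Symbols came from the platform annotation; 954 genes had several probe sets and were represented by the one with the highest mean. No build is named with that annotation.

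One linear model over the 9 arrays was run with limma (version 3.58.1, R version 4.3.3), moderated by eBayes, with two-sided tests (9.6 total degrees of freedom, median residual SD 0.0957), with Benjamini-Hochberg adjustment over all 28214 probe sets and 95% intervals from the same fit. The method was tested on simulated data. Genes named were all 44, each called pathway gene and up to 3 per list by p. The genes and lists were chosen with earlier results of these data known. Tables and figures used Python 3.11.15. The closing section names the alternatives tried, of which leaving out immature 2, diestrus 2 and diestrus 3 at once was chosen after seeing the data. The titles give each group replicates numbered 1 to 3.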

Additional observations from a re-analysis of the deposited data

How the results depend on the processing

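The alternatives were cyclic loess, median centring, repeated quantile normalization, array weights, an intensity trend with a robust prior, no dim probe sets, probe sets with 1 symbol only, averaging the probe sets that share a symbol (which cannot change genes with 1 probe set), an adjusted p under 0.10, only the arrays compared, the replicate block, each of 9 arrays left out, and 3 arrays left out together. The count of 0 of 44 genes called was the same under all 21 alternatives for diestrus and for estrus against immature oviduct, and under all 20 for mature against immature oviduct. For diestrus against estrus it was 0 under 20 of 21. Array weights gave 9 there (7 higher, Acvr1b, Bmp4, Bmpr1b, Smad3, Tgfb2, Tgfb3 and Tgfbr3, and 2 lower, Bmp3 and Smad2), with 3331 calls over all probe sets against 45 without weights; these weights were 8.16 for estrus 3 and at most 2.16 for any other array. The median over the 44 genes for diestrus minus estrus was 0.0159 with array weights and 0.0349 to 0.0692 with 1 array left out. For estrus minus immature it was -0.0577 without dim probe sets and -0.0514 to -0.0274 with 1 array left out. The setting without dim probe sets dropped Bmp10, Gdf2 and Acvr1c, so its median and its count of 0 cover only the other genes. With 1 array left out the median over the 44 genes was -0.0006 to 0.0256 for diestrus minus immature and -0.0326 to -0.0012 for mature minus immature. Of 3640 single-gene values 282 turned sign, none of them among the 5 differences with an unadjusted p under 0.05.

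Adding the replicate number as a block left 0 of 44 genes called in each comparison, with 13, 121, 4 and 44 calls over all probe sets for diestrus against estrus, diestrus against immature, estrus against immature and mature against immature oviduct, where 45, 282, 24 and 122 stood without it (smallest adjusted p 0.255 for Tgfb3 between diestrus and estrus), and Tll1 lost its calls (adjusted p = 0.0658 and 0.0744), as did Ccn2 for mature against immature oviduct (0.0857). The correlation of deviations between arrays with the same number was -0.294 to 0.169, so the numbers were not taken to pair the pools. With only the arrays compared, Tll1 had an adjusted p of 0.0714 for diestrus against immature oviduct and Ccn2 of 0.101 against estrus. Without immature 2, diestrus 2 and diestrus 3, with the lone diestrus array assumed to vary like the other groups, Tll1 and Ccn2 were not called in any comparison, at differences of -0.51 and 0.60 for diestrus minus immature; 3 of all probe sets were then called in that comparison, against 282.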
